A study of Mus musculus with 8 samples.

Results

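Insulin-like growth factors (IGFs), their receptors and their binding proteins were examined in muscle stem cells (MuSCs) from aged mice cultured with or without nicotinamide (NAM) and pyridoxine (PN, a form of vitamin B6). The family was taken by name, as 10 genes among the 55487 Ensembl identifiers of the count table: the ligands Igf1 and Igf2, the receptors Igf1r and Igf2r, and the binding proteins Igfbp2 to Igfbp7. MuSCs were sorted by FACS from 8 aged mice that were combined into 4 pools of 2, and each pool was cultured for 72 hours in growth medium with 1% DMSO as vehicle or with the NAM/PN combination. The labels give 1 mM for the combination without separate doses of NAM and PN, and the study states that all its mice were male. The libraries read the 3′ ends of transcripts, and the pool number joins the vehicle and NAM/PN libraries that came from the same mice.

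IGF1 and IGF2 are secreted peptides that act on IGF1R, a receptor tyrosine kinase that signals through PI3K and AKT and through ERK, and they promote both the growth and the differentiation of muscle precursors. IGF2R takes IGF2 to the lysosome and carries no kinase. Binding proteins hold the ligands outside the cell and can limit or prolong their action, and cultured myoblasts are known to raise Igf2 and Igfbp5 as they differentiate.

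The libraries held between 6472484 and 10163101 counted reads, and 12060 genes passed the filter on low counts and were tested with edgeR's quasi-likelihood test, with p-values adjusted over all of them by the Benjamini-Hochberg method. Levels are given as CPM, the counts scaled to a common library size after normalization. A transcript gives reads at its 3′ end only, so that counts were not divided by length and are set side by side between genes. NAM/PN pool 4 had the most reads but the fewest genes with a count, 12483 against 12939 to 14472 in the other libraries, and its values are named where they decide a result. The cells carried myogenic transcripts: Pax7, a marker of satellite cells, averaged 196 ± 36.2 CPM in the vehicle libraries against 173 ± 50.3 CPM under NAM/PN (SD, n = 4). The 10 markers of differentiating myocytes had sums of 1703 to 3323 CPM in vehicle libraries and of 291 to 784 CPM in NAM/PN libraries. Of the 10, 8 were lower at an adjusted p under 0.05, beside 0.995% of all tested genes. In bulk libraries such as these, fewer differentiating cells and less of a transcript per cell cannot be told apart.

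Igfbp5 fell with NAM/PN, and it was the only member that passed the test. Of the 10 members, 8 passed the filter and were tested. At an adjusted p under 0.05, 1 of the 8 (12.5%) was lower and 0 were higher, beside 1.28% of all tested genes in either direction, 0.995% lower and 0.282% higher. The log2 fold change was negative for all 8, with a median of -0.58, beside 6056 of 12060 negative values and a median of -0.0022 over all tested genes. The members share the same 8 libraries and their changes are not independent. None of the 8 passed the filter through the libraries of a single condition alone.

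**Figure D1:**
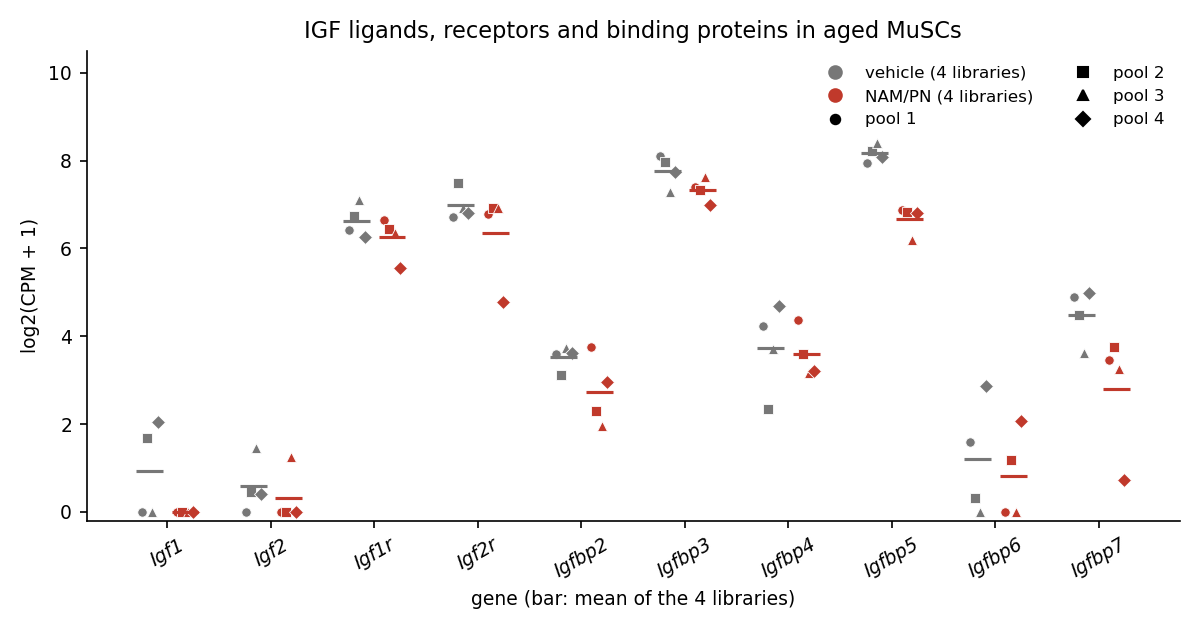
Level of each of the 10 genes as log2(CPM + 1) in the 4 vehicle libraries (gray) and the 4 NAM/PN libraries (red), with a symbol for each pool and a bar at the mean. Igfbp5 and Igfbp3 lie highest, Igf1 and Igf2 have 0 counts in several libraries and at most 3.16 CPM, and Igfbp5 is the only tested gene whose conditions do not overlap.

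With vehicle, Igfbp5 was the most abundant member at 289 ± 39.8 CPM (SD, n = 4), followed by Igfbp3 at 222 ± 51.1 CPM. The receptors came next, Igf2r at 129 ± 34.6 CPM and Igf1r at 100.3 ± 27.1 CPM. The ranges of neighbours in this order overlapped down to Igf1r, and Igfbp5 exceeded Igfbp3 in 3 of the 4 vehicle libraries. Igfbp7, Igfbp4 and Igfbp2 lay lower, at 22.95 ± 8.80, 14.7 ± 8.76 and 10.6 ± 2.02 CPM. Every vehicle library had more Igf1r than any had of Igfbp7, while the ranges of Igfbp7 and Igfbp4, and of Igfbp4 and Igfbp2, overlapped. Igfbp6, Igf1 and Igf2 were near the limit of detection, with mean levels of 2.14, 1.35 and 0.607 CPM. With NAM/PN the order of the leading pair turned. Igfbp3 led at 162 ± 28.3 CPM and exceeded Igfbp5, at 103 ± 20.5 CPM, in 4 of 4 libraries, without overlap between their ranges. Igfbp5 and Igf2r (94.1 ± 45.5 CPM) then overlapped, as did Igf2r and Igf1r (78.0 ± 22.8 CPM). Below them, Igfbp4 at 11.8 ± 5.56 CPM, Igfbp7 at 7.92 ± 5.12 CPM and Igfbp2 at 6.49 ± 4.28 CPM overlapped, and Igfbp6 averaged 1.11 CPM.

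Igfbp5 (ENSMUSG00000026185, chromosome 1 of GRCm38 from 72857932 to 72874884, minus strand) encodes a secreted binding protein that also attaches to the extracellular matrix. Its level was 246, 298, 339 and 271 CPM in vehicle pools 1 to 4, and 116, 113, 72.5 and 111 CPM in the NAM/PN libraries of the same pools. All 4 NAM/PN libraries lay below all 4 vehicle libraries, and the lowest was pool 3, which had been the highest with vehicle. Separation of the conditions was found in 7.21% of all tested genes, and with NAM/PN lower in 4.42%. The mean was 2.80-fold lower with NAM/PN. On the log2 scale the fitted change was -1.48 with a standard error of 0.19 and a 95% interval from -1.89 to -1.08 (edgeR, adjusted p = 0.000232). Within pools, the log2 difference (prior count of 2) was -1.09, -1.40, -2.22 and -1.29. Ranked by p-value, Igfbp5 stood 15th of the 12060 tested genes, and its vehicle level was above that of 95.7% of them. A two-sided exact permutation test over the 70 assignments of libraries gave p = 0.0286, the smallest value that 4 against 4 allows.

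The promoter of Igfbp5, the gene that fell, is shown beside that of Igfbp3, the other abundant binding protein. Both are RefSeq windows on GRCm38.p6, from 250 bases before to 50 bases after the start of the gene, at chr1:72874816-72875115 (minus strand) for Igfbp5 and chr11:7213874-7214173 (minus strand) for Igfbp3. Capitals mark matches to the E-box CANNTG, the core sequence bound by MYOD, MYOGENIN and many other helix-loop-helix factors, which reads the same on both strands:
Igfbp5: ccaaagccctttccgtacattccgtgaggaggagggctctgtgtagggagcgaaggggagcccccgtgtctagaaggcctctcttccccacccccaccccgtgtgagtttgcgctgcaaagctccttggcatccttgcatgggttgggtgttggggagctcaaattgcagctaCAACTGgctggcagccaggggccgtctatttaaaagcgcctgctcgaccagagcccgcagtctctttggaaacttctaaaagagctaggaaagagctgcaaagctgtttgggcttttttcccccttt
Igfbp3: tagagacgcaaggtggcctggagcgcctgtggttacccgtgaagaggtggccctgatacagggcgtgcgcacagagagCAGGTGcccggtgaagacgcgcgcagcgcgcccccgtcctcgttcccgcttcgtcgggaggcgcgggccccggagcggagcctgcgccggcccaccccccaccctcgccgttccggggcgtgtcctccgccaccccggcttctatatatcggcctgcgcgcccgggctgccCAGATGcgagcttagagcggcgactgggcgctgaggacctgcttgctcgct
Igfbp5 holds 1 match, starting 77 bases before the start of the gene, and Igfbp3 holds 2. Such a match is common, since 72.3% of 32851 promoter windows of this length hold at least 1. The GC content is 56.3% for Igfbp5 and 71.7% for Igfbp3. Neither window holds TATAAA on either strand, which 13.6% of the windows do. Only exact matches were counted, and similar stretches, such as tatttaaaa in Igfbp5 and tatatat in Igfbp3, were not searched for. Windows were found for all 10 members.

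Igfbp3 (ENSMUSG00000020427, chromosome 11 from 7206086 to 7213923), which encodes the main carrier of IGFs in blood, was lower in 3 of 4 pools without passing the test. It had 272, 249, 155 and 214 CPM with vehicle and 168, 160, 195 and 126 CPM with NAM/PN. The conditions overlapped through pool 3, where the NAM/PN library was the higher of the pair. The log2 fold change was -0.46 (95% interval -0.87 to -0.037), which edgeR gave an unadjusted p of 0.0345 and an adjusted p of 0.470. Unadjusted p-values under 0.05 were found for 9.28% of all tested genes.

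Within each library, the ratio of Igfbp5 counts to those of the other abundant members does not depend on the scaling of libraries. These 3 ratios were chosen after the values were seen and are given as a description, without a test. The ratio of Igfbp5 to Igfbp3 ranged from 0.905 to 2.19 in vehicle libraries and 0.372 to 0.877 in NAM/PN libraries, a log2 difference of -1.06 that was negative in 4 of 4 pools. The ratio of Igfbp5 to Igf1r ranged from 2.49 to 3.60 in vehicle libraries and 0.903 to 2.42 in NAM/PN libraries, a log2 difference of -1.12 in the same direction in 4 of 4 pools. For each of these ratios the conditions did not overlap. The ratio of Igfbp5 to Igf2r differed by -0.86 on the log2 scale and was lower in 3 of 4 pools, with overlapping conditions. In NAM/PN pool 4 that ratio was 4.21, above every other library, and Igf2r was low there.

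**Figure D2:**
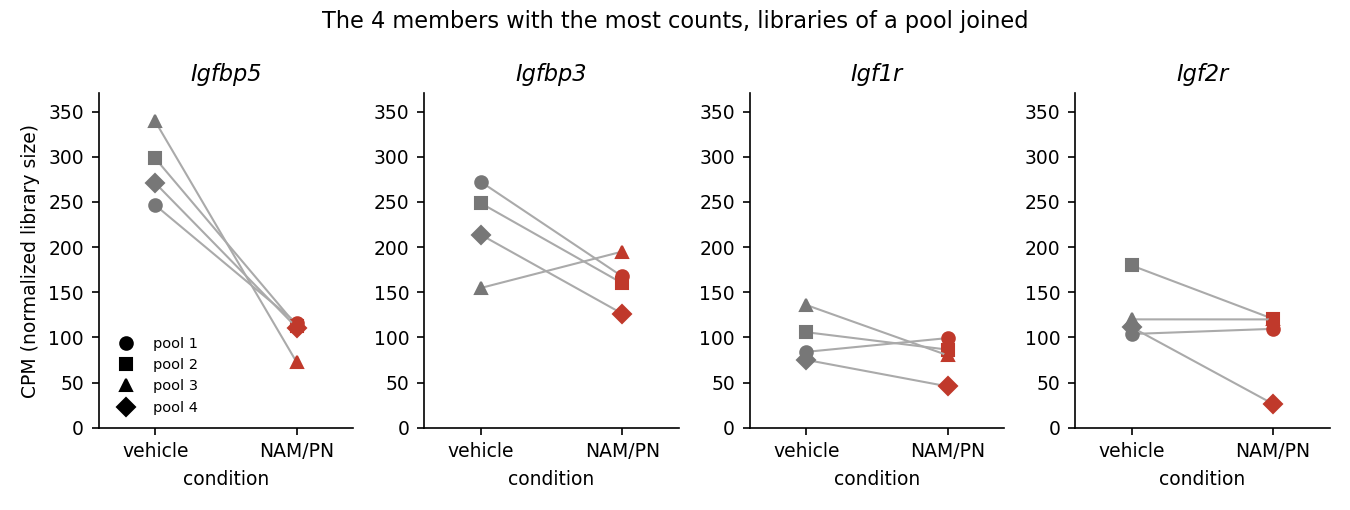
CPM of the 4 members with the most counts, with vehicle and NAM/PN libraries of the same pool joined by a line and each pool drawn with its own symbol; all panels share an axis that starts at 0. Igfbp5 falls in all 4 pools, from between 246 and 339 CPM to between 72.5 and 116 CPM, while each of the other genes overlaps between conditions and Igf2r drops to 26.3 CPM in NAM/PN pool 4.

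Igfbp7 (ENSMUSG00000036256, chromosome 5 from 77349240 to 77408041) encodes a related secreted protein with low affinity for IGFs. It was lower in 4 of 4 pools, at 28.8, 21.2, 11.2 and 30.6 CPM with vehicle and 9.97, 12.5, 8.53 and 0.654 CPM with NAM/PN. The conditions overlapped, as NAM/PN pool 2 lay above vehicle pool 3. The log2 fold change of -1.54 (95% interval -2.84 to -0.24) was close to that of Igfbp5 in size but less precise, and did not pass (edgeR, adjusted p = 0.385). Without NAM/PN pool 4, which had 7 counts, it was -1.15 with an adjusted p of 0.352. Of the last 500 exonic bases of Igfbp7, 85 overlap the end of Polr2b on the opposite strand, and the strand setting of the counting is not given in the sources used here.

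Igfbp2, Igfbp4 and Igfbp6 had few counts and wide intervals, and none of them passed the test. Igfbp2 (ENSMUSG00000039323), which encodes a binding protein that favors IGF2, lies next to Igfbp5 on chromosome 1, with 5457 bases between the ends of the genes. It had 11.01, 7.69, 12.4 and 11.3 CPM with vehicle and 12.4, 3.90, 2.89 and 6.72 CPM with NAM/PN. In pools 2 to 4 it was lower with NAM/PN, and in pool 1 it was not (log2 fold change -0.70, 95% interval -2.11 to 0.71, adjusted p = 0.879 from edgeR). The fold change of Igfbp2 was -1.23 without NAM/PN pool 1 and -0.46 without NAM/PN pool 3. Igfbp4 (ENSMUSG00000017493), the substrate of the protease PAPP-A, had 17.9, 4.09, 12.0 and 24.7 CPM with vehicle and 19.8, 11.1, 7.92 and 8.22 CPM with NAM/PN. It was lower in 2 pools and higher in 2, and the log2 fold change of -0.32 (95% interval -1.48 to 0.84, adjusted p = 0.960) became 0.050 without vehicle pool 4. Igfbp6 (ENSMUSG00000023046) had between 0 and 58 counts per library, with 0 counts in vehicle pool 3 and in NAM/PN pools 1 and 3. Its log2 fold change was -0.93 with a 95% interval from -5.00 to 3.14, and it was 0.54 without vehicle pool 4.

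The transcripts of the 6 binding proteins summed to 578, 580, 529 and 557 CPM with vehicle and to 326, 302, 287 and 256 CPM with NAM/PN. The vehicle sums lay close together although their makeup varied, with Igfbp5 highest and Igfbp3 lowest in pool 3 and the reverse in pool 1. Igfbp5 made up 42.6% to 64.1% of the sum in vehicle libraries and 25.3% to 43.3% in NAM/PN libraries. Igfbp3 made up 29.2% to 47.1% in vehicle libraries and 49.4% to 68.0% in NAM/PN libraries. The remaining 4 genes took small shares, of which the largest in any library was 6.08%, for Igfbp4 in NAM/PN pool 1. These sums and shares are given as a description, without a test.

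**Figure D3:**
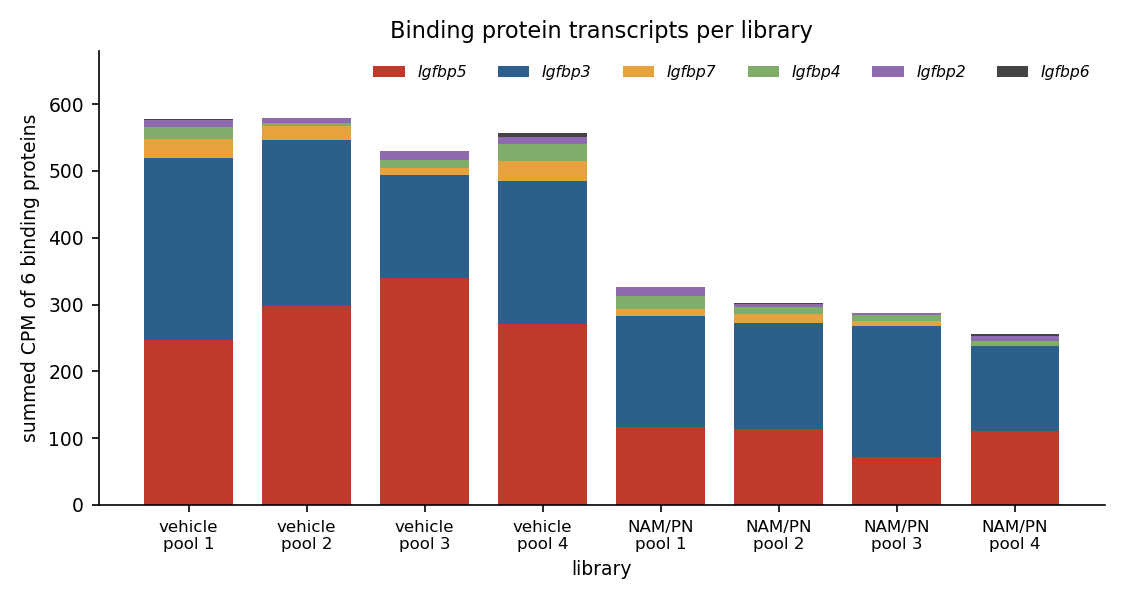
Summed CPM of the 6 binding protein transcripts in each library, stacked by gene from an axis at 0, vehicle pools 1 to 4 on the left and NAM/PN pools 1 to 4 on the right. The sum ranges from 529 to 580 CPM in vehicle libraries and 256 to 326 CPM in NAM/PN libraries, and the Igfbp5 segment (red, at the base) is shorter in every NAM/PN library.

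Both receptors were well counted and neither passed the test. Igf1r (ENSMUSG00000005533, chromosome 7 from 67952827 to 68233668) had 84.1, 106, 136 and 75.2 CPM with vehicle and 99.3, 86.5, 80.2 and 45.9 CPM with NAM/PN. It was lower in 3 of 4 pools and higher in pool 1, with overlapping conditions and a log2 fold change of -0.36 (95% interval -0.89 to 0.16, adjusted p = 0.780 from edgeR). It was -0.18 without NAM/PN pool 4 and -0.19 without vehicle pool 3. Igf2r (ENSMUSG00000023830, chromosome 17 from 12682406 to 12769664) had 104, 179.7, 120.05 and 111 CPM with vehicle and 109.6, 120.5, 120.0 and 26.3 CPM with NAM/PN. NAM/PN pool 4 stood apart from the other 3 NAM/PN libraries, which lay within the vehicle range. The log2 fold change of Igf2r was -0.45 (95% interval -1.15 to 0.24, adjusted p = 0.799) and -0.14 without that library. The same library had the lowest Igf1r, Igfbp3 and Igfbp7 of all 8 libraries. Airn, a long noncoding RNA transcribed from the opposite strand of the Igf2r locus, had 10.3 to 21.8 CPM in vehicle libraries and 10.46 to 17.4 CPM in NAM/PN libraries, highest among the NAM/PN libraries in pool 4 (log2 fold change -0.046, adjusted p = 0.994). Airn was chosen after its values were seen, because it overlaps Igf2r. The 95% intervals of both receptors include 0 and reach -0.89 for Igf1r and -1.15 for Igf2r.

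The ligands were scarcely counted. Igf1 (ENSMUSG00000020053, chromosome 10 from 87858265 to 87937042) had 18 and 29 counts in vehicle pools 2 and 4 and 0 counts in the other vehicle libraries and in all 4 NAM/PN libraries. A count of 0 allows up to 3 counts, which correspond to between 0.295 and 0.464 CPM of a library's total, and such limits cover counting error only. Among markers of mural cells, the pericyte markers Rgs5 and Abcc9 also had counts in vehicle pools 2 and 4. These were 10 and 22 for Rgs5 and 37 and 21 for Abcc9, which also had 21 in NAM/PN pool 2. The other markers of that list did not share this pattern. Pdgfrb and Kcnj8 had counts in vehicle pool 2 only, and Myh11, Cnn1 and Higd1b had 0 everywhere. Acta2, Notch3 and Cspg4 were counted in every library. The part of mural cells in the Igf1 counts was not tested. Igf1 did not pass the filter. No test is given for Igf1, since all of its counts lay in vehicle pools 2 and 4. Igf2 (ENSMUSG00000048583, chromosome 7 from 142650766 to 142666816, minus strand) had 0, 3, 14 and 3 counts with vehicle and 0, 0, 9 and 0 counts with NAM/PN. It did not pass the filter either (edgeR, adjusted p = 0.962 without the filter).

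Igf2 shares its 3′ end with another gene model. In the GENCODE M21 annotation, 497 of the last 500 exonic bases of Igf2 (99.4%) are also exon of Gm49394, a protein-coding gene model on the same strand, and Gm49394 is among the identifiers of the count table with 0 counts in all 8 libraries. By default htseq-count, the tool that made the table, gives a read in exons of more than 1 gene to none of them. Whether the default was used is not given in the sources used here, and its part in the Igf2 count was not tested on reads. Among protein-coding genes with at least 90% of these bases shared with a gene on the same strand, 74.4% of 383 had 0 counts in every library, beside 38.0% of 21334 genes with no shared base. The other 9 members share no base of their last 500 with a gene on the same strand.

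H19, the noncoding RNA 72622 bases from Igf2 in the same imprinted domain, was abundant in every library and has no such overlap. H19 (chromosome 7 from 142575529 to 142578143) had 1564, 2552, 1592 and 3339 CPM with vehicle and 573, 1362, 916 and 1555 CPM with NAM/PN. Every NAM/PN library lay below every vehicle library, narrowly for NAM/PN pool 4, and the level was lower in 4 of 4 pools. On the log2 scale the difference of H19 was -1.04 with a standard error of 0.27. In edgeR its adjusted p was 0.0666, and 0.00137 once pools entered the model as a replicate block. It was also called in the fit without the filter, by limma, and without vehicle pool 3 or NAM/PN pool 4. H19 varied between pools in both conditions.

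H19 belongs to a list of 22 partner genes of the pathway, of which 12 were tested. None was called higher or lower in edgeR's test at an adjusted p under 0.05, 4 had a positive and 8 a negative log2 fold change, and their median was -0.12. At an unadjusted p under 0.05 there were 4, H19, Grb10, Irs1 and Igf2bp2, that is 4 of 12 against 9.28% of all tested genes. With the replicate block 1 gene, H19, was called lower, DESeq2 called 1, Grb10, and limma called 2, H19 and Grb10. In all libraries 7 of the 22 had 0 counts, among them Igfbp1, Igfals, which encodes the acid-labile subunit of circulating IGF complexes, and Pappa2, which encodes a protease of binding proteins.

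Among the adaptors beneath the receptors, Grb10 had a negative and Irs1 a positive log2 fold change without passing the adjusted threshold. The other tested adaptors, Irs2, Shc1 and Sh2b1, overlapped between conditions. Their log2 fold changes were 0.13, 0.020 and -0.17 (edgeR, adjusted p = 0.990, 0.995 and 0.934). Grb10, an imprinted gene whose product inhibits IGF1R and insulin receptor signaling, had 171, 186, 119 and 172 CPM with vehicle and 102, 107, 98.2 and 102 CPM with NAM/PN. The conditions did not overlap, and the NAM/PN libraries lay close together (log2 difference -0.67, standard error 0.19, adjusted p = 0.101 from edgeR, 0.0194 from DESeq2 and 0.0235 from limma). Irs1, which couples IGF1R and the insulin receptor to PI3K, had 108.1, 107.8, 90.2 and 107.1 CPM with vehicle and 154, 131, 176 and 116 CPM with NAM/PN. It was higher in 4 of 4 pools without overlap (log2 fold change 0.48, standard error 0.19, adjusted p = 0.362). Of the 12 tested partner genes, 3 did not overlap between conditions, H19, Grb10 and Irs1, beside 7.21% of all tested genes. Insr, the insulin receptor, averaged 7.90 ± 3.72 CPM in vehicle and 7.82 ± 3.43 CPM in NAM/PN libraries (SD, n = 4; log2 fold change -0.014, 95% interval -1.51 to 1.48).

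Igf2bp2, which encodes an RNA-binding protein of Igf2 and other transcripts, had 22.97, 20.5, 29.8 and 14.0 CPM with vehicle and 36.6, 42.2, 23.8 and 79.6 CPM with NAM/PN. It was higher in 3 of 4 pools, with overlapping conditions and a log2 difference of 1.06 (standard error 0.36; edgeR, adjusted p = 0.241). Without NAM/PN pool 4 the log2 fold change was 0.65.

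**Figure D4:**
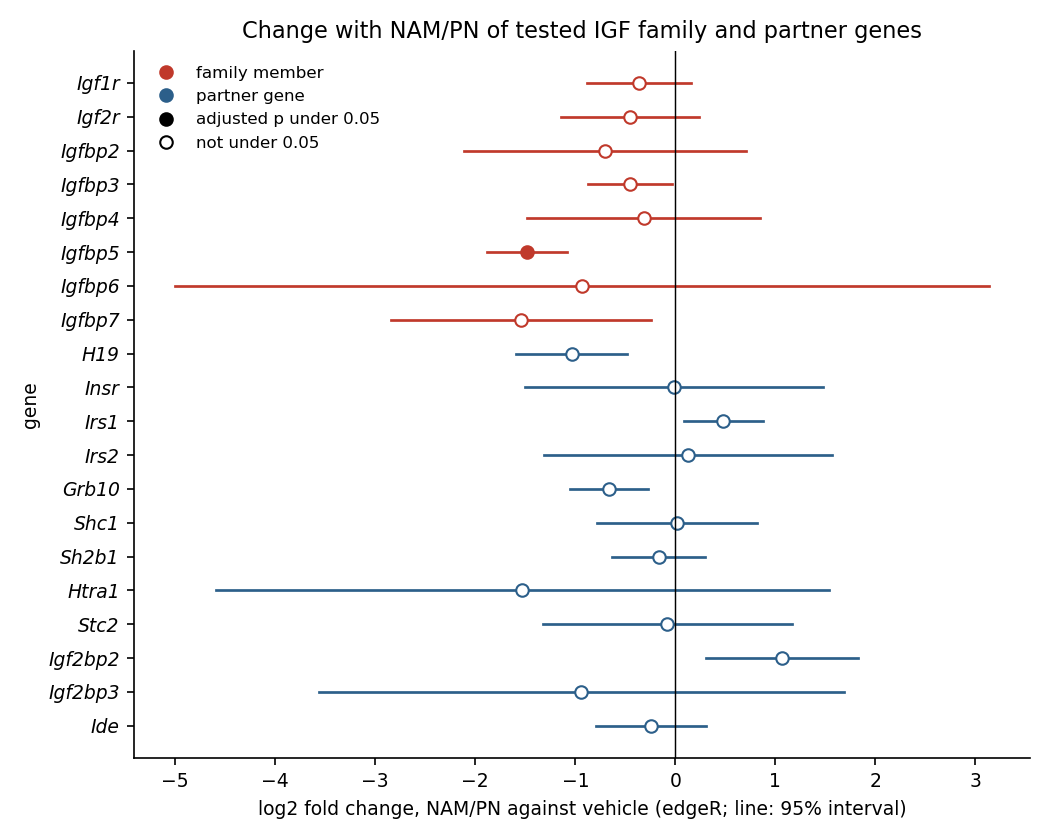
Log2 fold change with NAM/PN (points) and its 95% interval (lines) from edgeR for the 8 tested members (red) and the 12 tested partner genes (blue); filled points have an adjusted p under 0.05. The point of Igfbp5, at -1.48, is the only filled one, and the intervals of Igfbp6, Htra1 and Igf2bp3 are the widest.

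FOXO factors are held out of the nucleus when AKT is active, and a list of 12 genes, the factors and their known targets, was described as genes downstream of the receptors. Of 11 tested, Trim63 passed the filter through the vehicle libraries alone and is given apart. Among the other 10, 1 was called lower and 0 higher, with 8 negative and 2 positive log2 fold changes, and a median of -0.40. Over all tested genes, 0.995% were called lower and 0.282% higher, 6056 of 12060 log2 fold changes were negative, and the median was -0.0022. Whether the changes of this list came through AKT and FOXO factors was not tested. Fbxo32 (atrogin-1), the called gene, and Trim63 (MuRF1) encode ubiquitin ligases of muscle. Fbxo32 had 41.6, 46.7, 68.9 and 27.5 CPM with vehicle and 6.28, 10.45, 21.2 and 3.83 CPM with NAM/PN (change of -2.16 in log2, standard error 0.46; edgeR, adjusted p = 0.0182). Trim63 had between 22 and 83 counts with vehicle and 0 in all 4 NAM/PN libraries, at least 17.6-fold lower against 3 counts per library. No test is given for it, since its vehicle counts alone took it past the filter. Fbxo32 lost its call without vehicle pool 2 or 3 or NAM/PN pool 1 or 2, at adjusted p-values between 0.0608 and 0.0810, and without the whole of pool 1 (0.180) or pool 2 (0.206). Its log2 fold change lay between -2.76 and -1.87 over the omissions of each library or pool. Foxo1 and Foxo3 had adjusted p-values of 0.822 and 0.869.

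The genes whose levels followed Igfbp5 most closely over the 8 libraries were Ptp4a3, Cavin2 and Dzip1, with Pearson's r of 0.991, 0.981 and 0.979 in log2 CPM. They head 8622 genes with a mean of at least 10 CPM, the libraries form groups by condition, and r over deviations from the condition means was 0.897, 0.921 and 0.836. Ptp4a3, which encodes a phosphatase, fell from 125 ± 14.0 to 57.3 ± 6.60 CPM (SD, n = 4; edgeR, adjusted p = 0.00377, and 0.0599 without pool 2). Cavin2, a coat protein of caveolae, fell from 96.8 ± 40.5 to 16.7 ± 7.44 CPM (adjusted p = 0.000578). Dzip1 had 16.6 ± 3.15 and 6.78 ± 1.49 CPM and an adjusted p of 0.360. These genes were chosen for their likeness to Igfbp5 in the same libraries, and their levels are a description.

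Myog, which encodes a transcription factor of differentiating myocytes, fell in the same libraries as Igfbp5. It had 680, 1042, 566 and 1428 CPM with vehicle and 108, 237, 173 and 277 CPM with NAM/PN (log2 fold change -2.22, adjusted p = 0.000232 from edgeR). The order of the pools differed between markers. In vehicle pool 3, where Igfbp5 was highest, Myog was at its lowest vehicle level, as were Mymx, Ckm, Myh3, Mylpf and Actc1 of the same marker list. Mymk, Acta1 and Tnnt1 lay between their extremes there. Tnnt3, a troponin, was the only marker of the list at its highest vehicle level in that pool, 238 CPM. Whether the fall of Igfbp5 is part of the fall of the differentiation markers was not tested.

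Markers of other cells of muscle were also counted. MuSCs were sorted as negative for CD31, CD45, CD11B and SCA1 and positive for CD34 and ITGA7, a gate that would remove endothelial cells, leukocytes and SCA1+ fibro-adipogenic cells. Of 10 fibro-adipogenic markers 3 were tested and 2 were lower, Gsn and Col3a1, which myogenic cells also express; Pdgfra, Lum and Dpt had 0 counts in all libraries and Dcn had 2 counts in vehicle pool 1. Ly6a, which encodes SCA1, had 37, 17 and 42 counts in vehicle pools 1 and 4 and NAM/PN pool 2 and 0 elsewhere, Pi16 had 14 counts in NAM/PN pool 1 and Cd248 had 7 in NAM/PN pool 3. The fibro-adipogenic markers had sums of 267 to 341 CPM in vehicle libraries and 84.1 to 1157 CPM in NAM/PN libraries, the upper end coming from Col1a1, at 486 and 1032 CPM in NAM/PN pools 1 and 2 and at most 41.3 CPM elsewhere. Mural markers had sums of 285 to 611 CPM in vehicle libraries and 95.9 to 156 CPM in NAM/PN libraries, with Myh11, Cnn1 and Higd1b at 0. Most of each vehicle sum was a single gene, Acta2. It was called lower, at 244 to 534 CPM with vehicle and 46.9 to 122 CPM with NAM/PN. Notch3, averaging 37.6 CPM (vehicle) and 26.7 CPM (NAM/PN), and Cspg4, averaging 27.1 and 18.7 CPM, were counted in every library and did not pass. Beside Rgs5 and Abcc9, whose counts are given with Igf1, Pdgfrb and Kcnj8 had 27 and 18 counts in vehicle pool 2 and 0 elsewhere. Endothelial markers reached sums of at most 21.8 CPM (vehicle) and 29.6 CPM (NAM/PN), with Egfl7 the most abundant. Egfl7, the only one tested, was higher with NAM/PN in 4 of 4 pools without passing the test (log2 fold change 1.02, edgeR, adjusted p = 0.687). Pecam1 and Cdh5 had at most 2.61 and 3.48 CPM, in vehicle pool 4 and NAM/PN pool 2, and Flt1, Tie1, Emcn and Cldn5 were at 0. Leukocyte markers summed to at most 14.1 and 10.3 CPM, with 7 of 10 at 0, among them Ptprc and Csf1r. The tested ones did not pass, Cd68 averaging 3.60 CPM (vehicle) and 4.85 CPM (NAM/PN) and Cd14 5.15 and 1.08 CPM. Schwann cell markers had sums of 1068 to 1373 CPM in vehicle libraries and 481 to 586 CPM in NAM/PN libraries, nearly all of it Ncam1, which myogenic cells express, while S100b, Cdh19 and Foxd3 were at 0. The part of these other cells in the values of the binding proteins was not tested.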

How the data were processed

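RNA from aged MuSCs was sequenced in 8 libraries, vehicle and NAM/PN from each of 4 pools of 2 mice. The table deposited by the authors holds raw counts per gene. Per the study's methods and the submitters' processing notes, QuantSeq 3′ reads were aligned to GRCm38 with RNASTAR and counted with HTSeq 2.16.2; the annotation release, strand setting and handling of reads in several places are not given in the sources used here. Gene names and positions were taken from GENCODE M21, which held 55227 of 55487 identifiers. Total counts lay between 6472484 and 10163101, so that 3 counts, the floor, correspond to between 0.295 and 0.464 CPM. No molecular identifiers are named, and counts of few molecules may repeat.

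Genes were filtered with filterByExpr (minimum count 10, minimum total 15, group given), scaled by TMM factors and tested with edgeR 4.0.16 in R 4.3.3 (glmQLFit and glmQLFTest, Benjamini-Hochberg adjustment over 12060 genes, threshold 0.05), the procedure the study gives for its mouse muscles. The standard error is the log2 fold change divided by the square root of F, and the 95% intervals are not adjusted. Libraries that share a number share a pool of mice, and the correlation of their deviations lay between -0.0332 and 0.0313. Alternatives used the pool as a replicate block, DESeq2 1.42.0, limma 3.58.1, other normalizations and filters, and left out each library or pool in turn. No 2 libraries of a condition were repeats (chi-square per degree of freedom at least 22.8).

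The members, the lists and the tests were chosen with earlier results of these data known. Named genes are the 10 members, called genes of the pathway lists, H19, Insr, Irs1, Grb10 and Igf2bp2, Myog and Pax7, and the 3 genes closest to each called member. Airn, Col1a1, Gm49394 and the ratios of members were chosen after their values were seen, as were other genes named as examples of a list.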

Additional observations from a re-analysis of the deposited data

Results flagged for a closer look

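In 78 groups of 4 libraries, 8 had a library set apart from the rest. Its gap, relative to the group's range, was above Dixon's 95% critical value. For independent groups of normally distributed values, chance alone would give 3.9, about 1 in 20. Groups with 0 counts, and items that share values, such as Igf2r and its ratio, do not meet this. The 8 groups can therefore not be judged against 3.9. Among the members, Igf2r was at 26.3 CPM in NAM/PN pool 4, against 109.6 to 120.5 CPM in the other NAM/PN libraries, and the ratio of Igfbp5 to Igf2r was 4.21 there against 0.604 to 1.06. Igfbp5 was at 72.5 CPM in NAM/PN pool 3, against 111 to 116 CPM. Igf2 was at 1.37 CPM in NAM/PN pool 3 and at 0 in the other NAM/PN libraries, a pattern that is flagged at any value above 0. Among the partner genes, Irs1 was at 90.2 CPM in vehicle pool 3 against 107.1 to 108.1 CPM, Shc1 at 28.8 CPM in vehicle pool 2 against 18.0 to 19.8 CPM, and Stc2 at 31.4 CPM in NAM/PN pool 3 against 5.88 to 8.37 CPM. The ribosomal RNA gene CT010467.1 took 18.7% of the counts in vehicle pool 3, against 9.09% to 9.59% in the other vehicle libraries.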

How the results depend on the processing

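Igfbp5 was called in all 20 fits that gave an adjusted p, at log2 fold changes between -1.62 and -1.27 over 22 alternatives and adjusted p-values up to 0.0189. The count of members called was 1, and 0 higher, under each of 21 alternatives. The other tested members were uncalled in every fit, with negative log2 fold changes except for Igfbp4, which reached 0.20, and Igfbp6, which reached 0.54, when libraries or pools were left out. With the pool as a replicate block, 156 genes were called, and the block changed no call among members; in the lists, leaving aside Trim63 (0 counts under NAM/PN), it added H19 and Actc1, a marker of differentiating myocytes. H19 was called in 5 of 20 fits, Grb10 in 3, Fbxo32 in 14 and Ptp4a3 in 19.

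Over all genes, 154 were called, 34 higher and 120 lower. Without the filter the counts were 366, 135 and 231. DESeq2 gave 388, 124 and 264, limma with quality weights gave 232 in all and 66 higher, and a threshold of 0.10 gave 244 and 65 higher. Leaving out a library or pool gave between 42 and 177 genes, between 5 and 43 higher and between 37 and 134 lower. The count moved by more than 1.5 times without vehicle pool 2 (80), vehicle pool 4 (87) or NAM/PN pool 1 (92), and without the whole of pool 1 (65), 2 (42) or 4 (94). The cause was not tested. Igfbp6, Igf1 and Igf2 had 58 counts or fewer in every library.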
